A study of Glycine max with 12 samples.

Results

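GLYMA_10G029600 and GLYMA_20G150300 are a pair of soybean (Glycine max) genes that carry the name HSFA6B, a heat stress transcription factor of class A. They are 2 of the 55897 genes with read counts, and they were chosen by their values in the same counts, which had shown the first gene high in flowers under heat and low under heat with water deficit, which raised the question of whether the second gene did the same. The values that chose them are therefore those under heat stress and under the stress combination, which are given here as a description with no test. The question that chose them did not name water deficit alone. However, the genes were chosen with earlier results of these data known, which may have held the values under water deficit. Water deficit was tested relative to the control. The control libraries of that test also enter the values that chose the genes, so it is not independent of the choice. Their identifiers place GLYMA_10G029600 on chromosome 10 and GLYMA_20G150300 on chromosome 20. Whether their sequences make them duplicates of one another was not examined.

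Heat stress transcription factors (HSFs) bind heat shock elements, short repeated motifs in the promoters of chaperone genes. In Arabidopsis, HSFA1 proteins start the heat response, HSFA2 is made in response to heat and prolongs it, and many class B members act as repressors. Arabidopsis HSFA6b is also induced by abscisic acid (ABA), the hormone of drought responses, through the ABA-responsive factor AREB1, and it activates DREB2A, so it has been placed between the drought and the heat response.

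RNA was sequenced from unopened flowers (stages II and III) of cultivar Magellan, grown in growth chambers from seeds inoculated with Bradyrhizobium, with 3 libraries per treatment and 12 in all. Control plants (CT) were well watered at 28°C by day, plants under water deficit (WD) were kept at 28°C with only 30% of their transpirable water, plants under heat stress (HS) were well watered at 38°C, and plants under the combination (WD+HS) received both treatments. Stress began at first flowering and had lasted 10 d when flowers were sampled, and each library pooled 30 to 40 flowers from 8 to 10 plants. Whole flowers were used, so a change in the share of a cell type and a change of RNA within cells cannot be told apart, and an effect of a growth chamber cannot be told apart from its treatment.

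Libraries held between 14049107 and 22415845 counted reads. Of the genes, 38410 had enough counts to be tested, both HSFA6B genes among them. Replicates of one treatment correlated at r = 0.975 to 0.988 across genes, and their counts differed by 3.52 to 12.1 times the variance of counting alone, so no library was a copy of another. All 4 floral markers examined were found, although TAPETUM 1 had 0 counts in 2 libraries and at most 49 in any. Their summed level was 15.1 to 16.7 counts-per-million (CPM) in CT and 14.7 to 20.3 in WD, but 7.97 to 9.53 in HS and 11.7 to 15.2 in WD+HS. Under HS, LEAFY was higher and AGAMOUS-like 6 and AGAMOUS-like 8 were lower, which are all 3 of the markers that could be tested, although the LEAFY call was lost without CT replicate 2 (edgeR adjusted p = 0.0562). Under WD+HS AGAMOUS-like 8 was lower and LEAFY barely passed the test (edgeR adjusted p = 0.0479), each lost without CT replicate 1 (edgeR adjusted p = 0.0543 and 0.0638), and LEAFY in most other alternatives too. The 2 leaf markers, both photosynthesis genes, summed to 46.7 to 151 CPM in CT, 113 to 176 in WD, 154 to 191 in HS and 66.0 to 214 in WD+HS. Rubisco activase, 1 of them, was higher under HS and under WD+HS. The part of floral stage or leafy tissue in the levels of the HSFA6B genes was not tested.

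GLYMA_10G029600 was the gene with the wider range. Its counts were 119, 180 and 175 in the CT libraries, 92, 60 and 48 under WD, 314, 360 and 397 under HS, and 44, 59 and 40 under WD+HS. Scaled to library size, these were 7.75, 8.15 and 10.6 CPM in CT, 6.57, 3.30 and 3.23 in WD, 17.7, 18.6 and 19.5 in HS, and 2.75, 4.17 and 2.43 in WD+HS. The HS libraries stood above all the others and the CT libraries came next, also apart from the rest, while the WD and WD+HS libraries overlapped. By mean, the order was HS (18.6 ± 0.882 CPM, SD, n = 3), CT (8.84 ± 1.54), WD (4.37 ± 1.91) and WD+HS (3.11 ± 0.926). HS and CT, and CT and WD, were separated by more than the range of their libraries, whereas WD and WD+HS were not.

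GLYMA_20G150300 covered a narrower range of treatment means, and was the lower gene of the pair by mean in CT, WD and HS but the higher in WD+HS. Its counts were 62, 85 and 77 in CT, 63, 86 and 23 under WD, 129, 113 and 123 under HS, and 84, 62 and 62 under WD+HS. In CPM these were 4.04, 3.85 and 4.67 in CT, 4.50, 4.73 and 1.55 in WD, 7.29, 5.85 and 6.04 in HS, and 5.25, 4.38 and 3.76 in WD+HS. Here too the HS libraries stood above every other library, but CT, WD and WD+HS overlapped with each other. The means were 6.40 ± 0.781 CPM in HS, 4.46 ± 0.745 in WD+HS, 4.18 ± 0.428 in CT and 3.59 ± 1.77 in WD (SD, n = 3 each), and only the step from HS to WD+HS exceeded the range of the libraries. WD replicate 3 was the lowest library of all, with 23 reads and an exact Poisson interval of 14.6 to 34.5 reads against 68.8 to 106 for the 86 reads of WD replicate 2, intervals that cover counting error only.

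**Figure D1:**
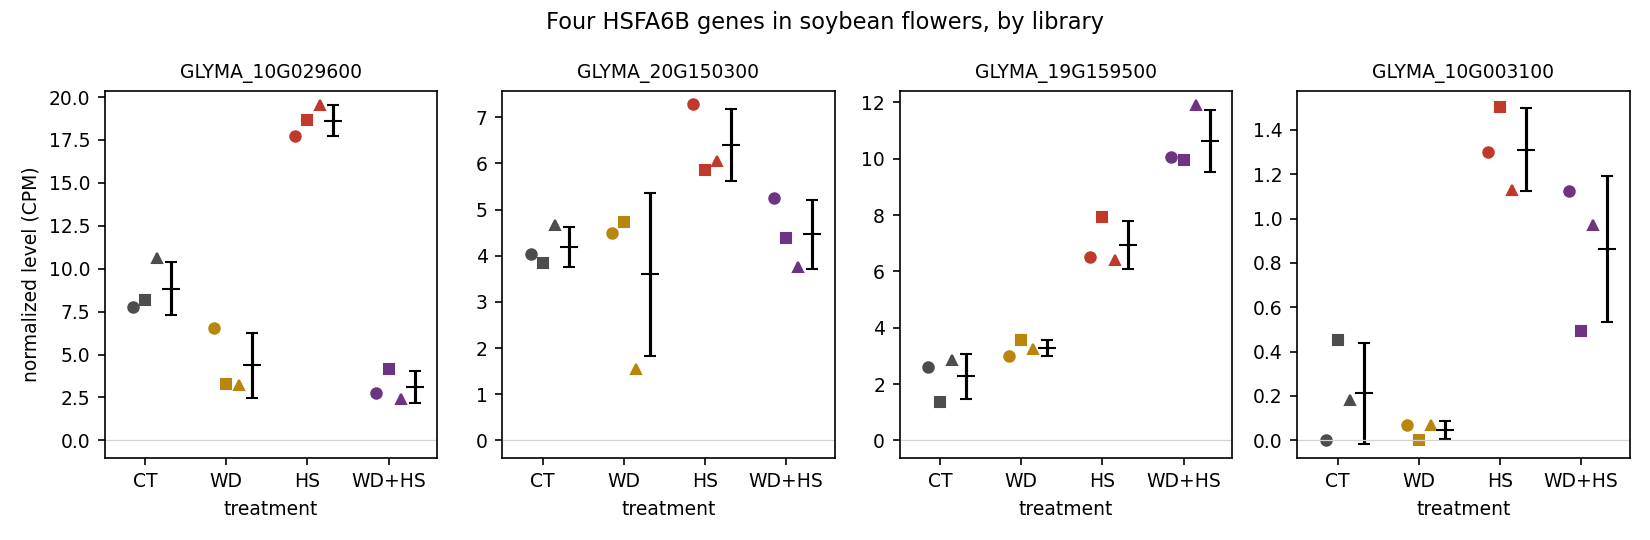
Level of the 4 HSFA6B genes in each library, in TMM-scaled counts-per-million on the y axis, by treatment on the x axis, with points for libraries and bars for the mean ± SD of 3 libraries. GLYMA_10G029600 falls from 18.6 CPM in HS to 3.11 in WD+HS, GLYMA_20G150300 from 6.40 to 4.46, and GLYMA_19G159500 goes from 6.94 to 10.6.

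The heat response was the feature shared by the pair. Relative to CT, the log2 fold change under HS was 1.08 (SE 0.22) for GLYMA_10G029600 and 0.61 (SE 0.28) for GLYMA_20G150300, values that belong to the choice of the genes. Among the 38410 genes, 95.8% had a smaller log2 fold change than the first gene and 87.9% a smaller one than the second. HS libraries lay above all CT libraries in 23.3% of genes, and above all libraries of the other 3 treatments in 4.07%, the background for the same ordering in both HSFA6B genes.

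Under the combination the pair parted. For GLYMA_10G029600 the log2 fold change of WD+HS relative to CT was -1.51 (SE 0.25), with every WD+HS library below every CT library, a separation seen in 24.4% of genes. For GLYMA_20G150300 it was 0.09 (SE 0.29), with overlapping libraries. The level under WD+HS was therefore below that of CT for the first gene and within the spread of CT for the second, and the reversal of direction between HS and WD+HS was not seen in GLYMA_20G150300. Such a reversal was seldom called among all genes. As background for a pattern that belongs to the choice of the genes, 62 genes (0.161%) were higher under HS and lower under WD+HS. The opposite pair of changes was seen in 27 genes (0.0703%). Both counts needed an adjusted p below 0.05 in both comparisons (edgeR, Benjamini-Hochberg), which is a different measure from the ordering of libraries described for the pair. The share of genes reversed by that ordering is not given here.

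Relative to HS alone, both genes were lower under WD+HS in every library, an ordering found in 14.4% of genes. The log2 fold change was -2.59 (SE 0.24) for GLYMA_10G029600, 6.02-fold lower, and -0.52 (SE 0.28) for GLYMA_20G150300. Only 0.419% of genes had a lower value than the first and 11.8% a lower value than the second. Relative to WD, the log2 fold change of WD+HS was -0.48 (SE 0.26) and 0.30 (SE 0.30), with overlapping libraries for each. These comparisons share libraries (those of CT for HS and WD+HS relative to CT, those of WD+HS for its differences from HS, CT and WD), so their values are not independent of one another.

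**Figure D2:**
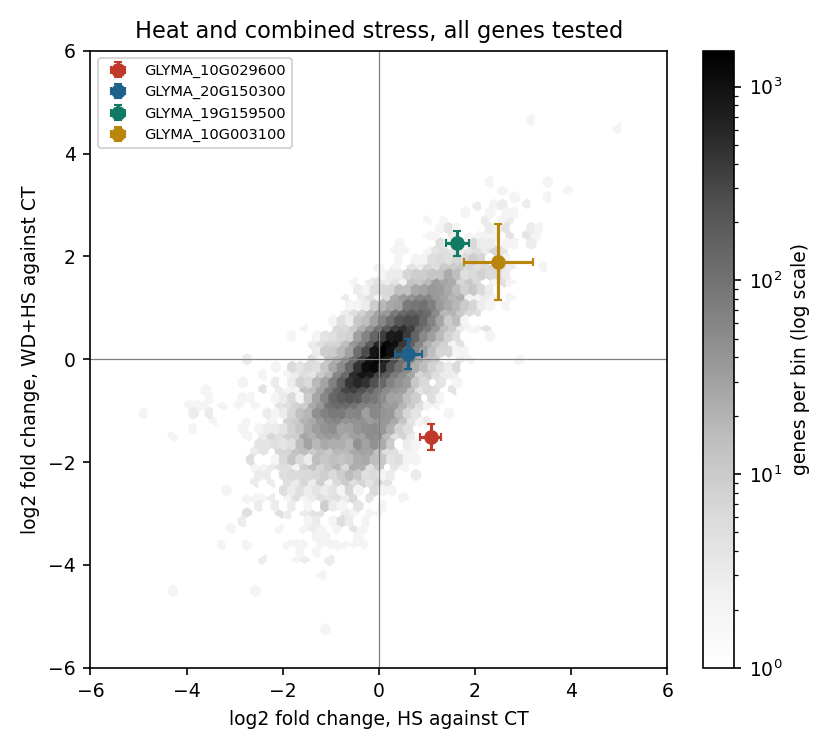
Log2 fold change relative to CT under HS (x axis) and under WD+HS (y axis) of all tested genes, shaded by the number of genes in each hexagon, with the HSFA6B genes marked; 46 genes lie outside the axes. GLYMA_10G029600 is at 1.08 and -1.51, GLYMA_20G150300 at 0.61 and 0.09.

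Water deficit without heat was the comparison tested, and it separated GLYMA_10G029600 from CT. The CT libraries of this test also entered the values that chose the gene, and the choice was made with earlier results of these data known. GLYMA_10G029600 fell under WD by 1.03 on the log2 scale (SE 0.24, 2.04-fold lower, adjusted p = 0.0279 in the edgeR quasi-likelihood test, adjusted by Benjamini-Hochberg), and all 3 WD libraries were below all CT libraries. At this threshold 1.62% of genes changed under WD, 0.937% upward and 0.682% downward, and 8.22% had WD libraries that lay wholly below CT. The call rested on small numbers of libraries: without any 1 of CT replicates 1, 2 and 3 or WD replicates 2 and 3 the adjusted p was 0.0549 to 0.126, with log2 fold changes of -1.44 to -0.85 over all single libraries left out. For GLYMA_20G150300 the log2 fold change under WD was -0.21 (SE 0.30, edgeR adjusted p = 0.82) and the libraries overlapped. That value was set by WD replicate 3, without which it was 0.15 (edgeR adjusted p = 0.871).

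The effect of WD could be set against temperature in the same way. The log2 effect of WD at 38°C minus that at 28°C was -1.56 (SE 0.34) for GLYMA_10G029600 and -0.31 (SE 0.41) for GLYMA_20G150300, given with no test because both use the values that chose the genes.

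The balance between the genes was read from FPKM, which is scaled to transcript length and so allows levels of different genes to be compared. GLYMA_10G029600 had 3.04, 3.26 and 4.61 FPKM in the CT libraries, 2.98, 1.87 and 1.44 in WD, 10.7, 9.03 and 8.82 in HS, and 1.19, 1.73 and 1.34 in WD+HS. GLYMA_20G150300 had 1.57, 1.61 and 2.03 FPKM in CT, 1.58, 1.81 and 0.685 in WD, 3.70, 2.48 and 2.79 in HS, and 2.12, 1.83 and 1.44 in WD+HS. GLYMA_10G029600 had the higher FPKM in 9 of 12 libraries, and the 3 libraries in which it was the lower were those of WD+HS. Its geometric mean ratio to GLYMA_20G150300 in FPKM was 2.07 in CT, 1.60 in WD, 3.21 in HS and 0.790 in WD+HS. The values in HS and WD+HS belong to the choice of the genes.

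The same ratio within each library, taken from counts, cancels library size but is not corrected for transcript length. A log2 ratio of 0 therefore means equal counts, not equal levels. The log2 ratio of counts was 0.94, 1.08 and 1.18 in CT, 0.54, -0.52 and 1.05 in WD, 1.28, 1.67 and 1.69 in HS, and -0.93, -0.07 and -0.63 in WD+HS. HS libraries were all above CT and WD+HS libraries all below it, while WD libraries were spread across 0. The HS and WD+HS values belong to the choice of the pair. How often ratios of other gene pairs are ordered this way is not given here, so the ordering has no background. The means were 1.06 ± 0.12, 0.36 ± 0.80, 1.54 ± 0.23 and -0.54 ± 0.43 (SD, n = 3). Between WD and CT, the difference of the log2 ratio of counts was -0.71, with p = 0.2 in an exact two-sided permutation test over the 6 libraries. The smallest p this design allows is 0.1, so the test could not have passed 0.05 and leaves unsettled whether the genes differ in their response to WD. In FPKM the same difference was -0.37.

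**Figure D3:**
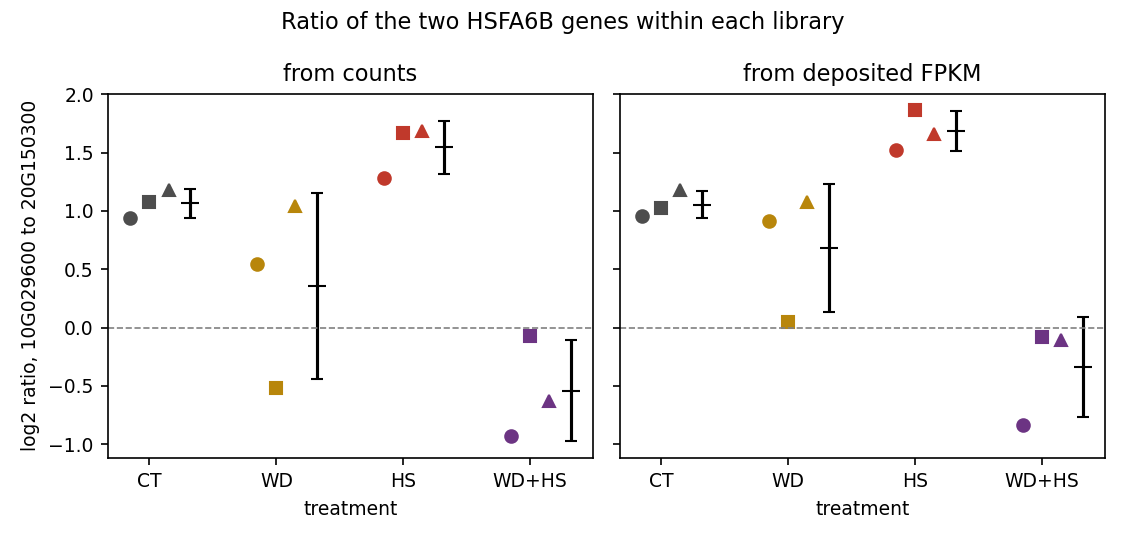
Log2 ratio of GLYMA_10G029600 to GLYMA_20G150300 in each library, from counts and from FPKM (y axis), by treatment (x axis), with points for libraries and bars for the mean ± SD of 3. The ratio of counts is 1.54 in HS, 1.06 in CT, 0.36 in WD and -0.54 in WD+HS.

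Counts and FPKM did not give the same ratio in every library. WD replicate 2 had a log2 ratio of -0.52 in counts and 0.05 in FPKM, and WD+HS replicate 3 had -0.63 and -0.11. The FPKM listed per CPM of GLYMA_10G029600 was 0.568 in WD replicate 2, 0.601 in HS replicate 1 and 0.553 in WD+HS replicate 3, above its value in the other 9 libraries. How reads that fit more than 1 gene were counted is not given in the sources used here, so reads that the pair or another HSF gene may share are not resolved in these values.

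Of the other genes described as HSFA6B, GLYMA_19G159500 moved the other way under the combination. Its level was 2.27 ± 0.800 CPM in CT, 3.27 ± 0.290 in WD, 6.94 ± 0.856 in HS and 10.6 ± 1.09 in WD+HS (SD, n = 3). Relative to CT it rose under HS (log2 fold change 1.64, SE 0.24, edgeR adjusted p = 2.13e-05) and under WD+HS (2.25, SE 0.24, edgeR adjusted p = 3.05e-07). The difference between WD+HS and HS, 0.62, did not pass the test (edgeR adjusted p = 0.0811), and neither did that of WD from CT, 0.56 (edgeR adjusted p = 0.329).

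GLYMA_10G003100, the remaining HSFA6B gene, was near the limit of detection. It had 0, 10 and 3 counts in CT, 1, 0 and 1 in WD, 23, 29 and 23 in HS, and 18, 7 and 16 in WD+HS. CT and WD libraries had at most 10 counts, so the gene passed the filter through the heated libraries, where it was high. Its test results relative to CT are therefore not independent of the filter. HS libraries were all above CT, and the rise under HS (log2 fold change 2.48, SE 0.72) had an edgeR adjusted p of 0.0114, which became 0.0506 without CT replicate 1. The log2 fold change under WD+HS was 1.89 (SE 0.74, edgeR adjusted p = 0.0506), a value that crossed the threshold without CT replicate 2, WD replicate 2 or WD+HS replicate 2 and with DESeq2. All 4 HSFA6B genes had their CT libraries below their HS libraries (23.3% of all genes), and of the 4 GLYMA_10G029600 alone had WD+HS libraries wholly below CT (24.4% of all genes). The pair was chosen by these values and the other genes came from lists of changed genes, so the counts are descriptions.

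The other HSFs were taken from the study's lists of changed genes, so their counts are no independent evidence of direction. Of 13 such genes, 9 rose and 1 fell under HS, 6 rose and 2 fell under WD+HS, and 1 was higher and 5 were lower under WD+HS than under HS. Under WD none passed the edgeR test, although 3 had an unadjusted p below 0.05 and DESeq2 called 1. At the same threshold 31.8% of all genes changed under HS (15.9% higher, 16% lower), 36.8% under WD+HS (17.7% higher, 19.1% lower) and 9.15% between WD+HS and HS (3.21% higher, 5.94% lower). The median log2 fold change over the 13 was 0.96 under HS, 0.57 under WD+HS and -0.45 between WD+HS and HS, beside a median of 0.01 over all genes in each.

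Of the activators in this list, HSFA2 genes took the widest range. GLYMA_17G227600 (HSFA2) was at 1.33 ± 0.623 CPM in CT, 0.531 ± 0.441 in WD, 85.7 ± 9.02 in HS and 41.4 ± 7.39 in WD+HS (SD, n = 3), with log2 fold changes of 5.98 under HS and 4.94 under WD+HS (edgeR adjusted p = 1.6e-13 and 3.51e-12). GLYMA_14G096800 (HSFA2) rose by 2.54 under HS and 1.72 under WD+HS on the log2 scale (edgeR adjusted p = 2.48e-10 and 5.49e-08). Both were lower under WD+HS than under HS (log2 fold changes of -1.05 and -0.81, edgeR adjusted p = 0.000122 and 0.000705), yet stayed above CT, unlike GLYMA_10G029600.

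Another HSFA2 gene, GLYMA_04G052000, was closer to GLYMA_10G029600 under the combination. It had 47.6 ± 11.1 CPM in CT, 35.0 ± 14.4 in WD, 54.9 ± 7.36 in HS and 17.2 ± 1.03 in WD+HS (SD, n = 3). It did not pass the test under HS (log2 fold change 0.20, edgeR adjusted p = 0.455), and it fell under WD+HS by 1.47 on the log2 scale (edgeR adjusted p = 1.12e-05). The last HSFA2 gene, GLYMA_17G053700, rose by 0.96 under HS and 1.23 under WD+HS (edgeR adjusted p = 0.00328 and 0.000304). The HSFA1D gene GLYMA_16G091800, of the class that starts the response, rose by 0.88 and 0.83 (edgeR adjusted p = 0.0096 and 0.0129, but 0.0647 and 0.0770 without CT replicate 2), and the HSFA3 gene GLYMA_03G191100, which acts downstream of DREB2A in Arabidopsis, by 1.70 and 1.94 (edgeR adjusted p = 0.000965 and 0.000231). The second HSFA3 gene, GLYMA_10G066100, had 1.06 and 1.18, neither past the test (edgeR adjusted p = 0.226 and 0.162).

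The HSF whose profile over the libraries was most like that of GLYMA_10G029600 belonged to class B. GLYMA_10G237800 (HSFB2A) had 7.58 ± 0.109 CPM in CT, 4.35 ± 0.542 in WD, 12.4 ± 1.63 in HS and 3.76 ± 1.70 in WD+HS (SD, n = 3). It was among the 62 genes called higher under HS and lower under WD+HS. Its log2 fold change was 0.71 under HS (SE 0.22, edgeR adjusted p = 0.0154) and -1.03 under WD+HS (SE 0.24, edgeR adjusted p = 0.00178). Under WD it was -0.81 (edgeR adjusted p = 0.087, DESeq2 adjusted p = 0.0392). The HS call did not survive the loss of CT replicate 2, HS replicate 1 or HS replicate 3 (edgeR adjusted p = 0.0522, 0.0554 and 0.0678).

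The second HSFB2A gene, like GLYMA_20G150300, had WD+HS libraries that overlapped with CT, although its profile over the 12 libraries had r = 0.752 with GLYMA_10G029600 and 0.581 with GLYMA_20G150300. GLYMA_20G156800 had 8.15 ± 0.350 CPM in CT, 7.52 ± 0.926 in WD, 16.2 ± 3.35 in HS and 8.40 ± 0.703 in WD+HS (SD, n = 3). It rose by 0.99 under HS (edgeR adjusted p = 7.7e-05) and was at 0.04 under WD+HS (edgeR adjusted p = 0.87). By their identifiers these HSFB2A genes, like the HSFA6B pair, lie on chromosomes 10 and 20, and in both cases the chromosome 10 gene was the one below CT under WD+HS. Whether the genes are neighbours was not examined.

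The remaining HSFs gave smaller or less certain values. The HSF4 genes (HSFB1) GLYMA_01G185800 and GLYMA_11G056200 rose by 1.02 and 0.76 under HS (edgeR adjusted p = 0.000164 and 0.00611), and the first also rose by 0.56 under WD+HS (edgeR adjusted p = 0.0189), a call lost without CT replicate 1 or 2 or WD+HS replicate 3 (edgeR adjusted p = 0.0556, 0.0714 and 0.108). HSFB4 (GLYMA_14G083700), with at most 20 counts in any library, fell by 2.53 under HS (edgeR adjusted p = 0.0334), which was lost without CT replicate 1 or 3 or HS replicate 1 or 3 (edgeR adjusted p = 0.140, 0.0618, 0.124 and 0.113). HSFC1 (GLYMA_09G190600) was the gene of the 13 that was higher under WD+HS than under HS, by 0.70 (edgeR adjusted p = 0.0314), opposite to the HSFA6B pair. That call was lost without HS replicate 2 or 3 or WD+HS replicate 1 or 2 (edgeR adjusted p = 0.114, 0.132, 0.159 and 0.0546).

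**Figure D4:**
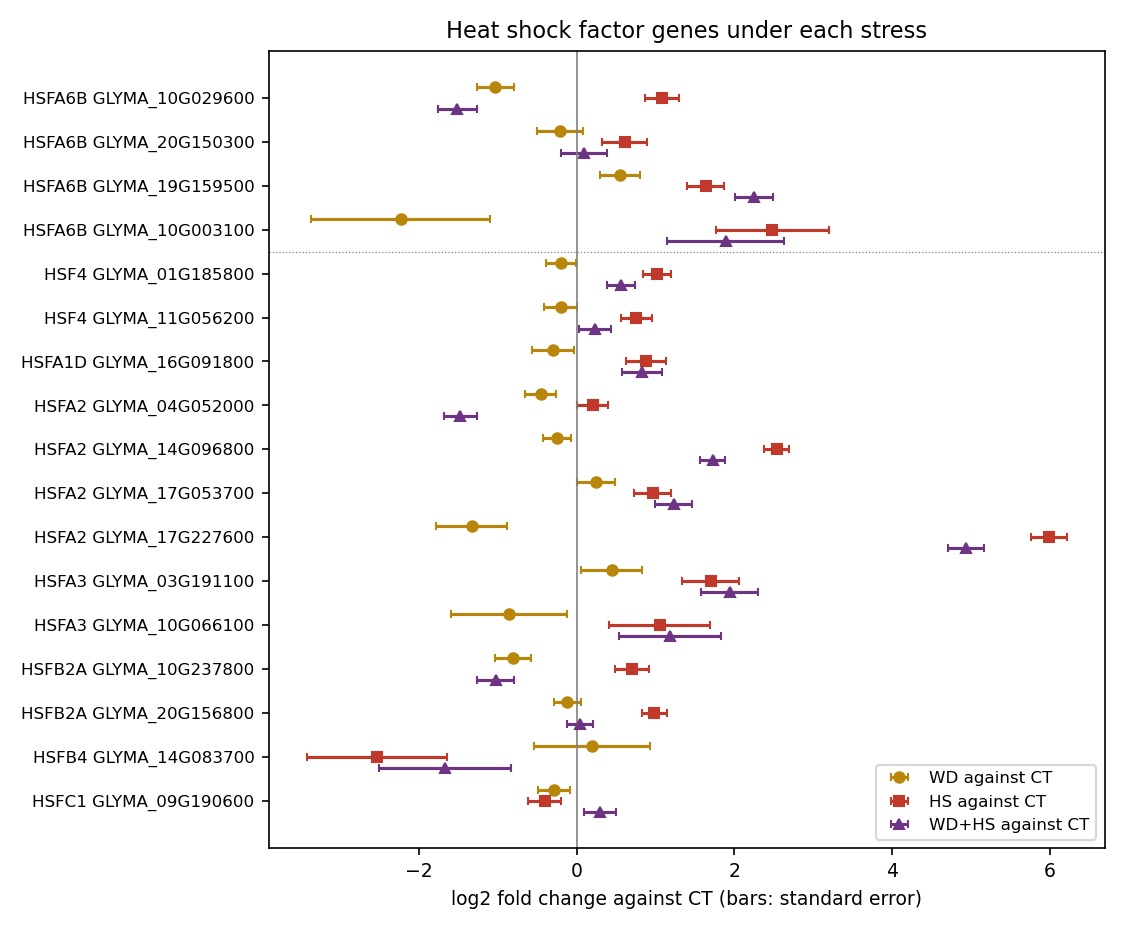
Log2 fold change of the 4 HSFA6B genes and 13 other HSF genes relative to CT, for WD, for HS and for WD+HS, with bars for the SE of the edgeR fit. GLYMA_10G029600 and the HSFB2A gene GLYMA_10G237800 are above 0 under HS (1.08 and 0.71) and below 0 under WD+HS (-1.51 and -1.03).

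Heat shock proteins, the chaperones whose genes HSFs activate, mostly rose under HS and under WD+HS. Of 54 listed genes, 52 were tested; 49 rose and 2 fell under HS, 40 rose and 3 fell under WD+HS, and 36 were lower and 3 higher under WD+HS than under HS. Of all genes, 15.9% rose and 16% fell under HS, 17.7% and 19.1% under WD+HS, and 3.21% were higher and 5.94% lower under WD+HS than under HS. This list too came from the study's lists of changed genes, so its counts are no independent evidence. Its median log2 fold change was 2.79 under HS, 1.46 under WD+HS and -1.04 between them. Under WD 4 fell and none rose, with a median of -0.45, beside 0.682% of all genes lower. That count was not stable: 0 fell without CT replicate 3, without WD replicate 3 or with only the groups compared, 2 without CT replicate 2, 1 without WD replicate 2, 13 without WD replicate 1, 14 without the filter and 7 in DESeq2, and limma on FPKM gave 1 higher and 0 lower. HSP90.1 (GLYMA_09G131500), with the highest CPM of the list as a mean over the 12 libraries but not within CT, WD or WD+HS, had 170 ± 61.8 CPM in CT, 111 ± 45.3 in WD, 799 ± 71.2 in HS and 214 ± 33.7 in WD+HS (SD, n = 3). It rose by 2.23 under HS (edgeR adjusted p = 1.74e-07), did not pass under WD+HS (0.33, edgeR adjusted p = 0.251), and was lower under WD+HS than under HS (log2 fold change -1.90, edgeR adjusted p = 7.92e-06). The next by that mean, GLYMA_13G176300 and GLYMA_07G200200, rose by 2.28 and 2.07 under HS and by 1.64 and 1.38 under WD+HS.

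Genes of ABA and drought were examined because HSFA6b responds to this hormone in Arabidopsis. Of 7 genes, relative to CT, 2 were higher under WD, 6 under HS and 6 under the combination, none was lower, and 5 were higher and 1 lower under WD+HS than under HS. Over all genes 0.937% were higher under WD, 15.9% under HS, 17.7% under WD+HS and 3.21% under WD+HS relative to HS, and these 7 also came from the study's lists of changed genes and earlier results. NCED3, which makes the limiting cleavage in ABA synthesis, had its highest level where GLYMA_10G029600 had its lowest. GLYMA_15G250100 (NCED3) was at 7.75 ± 0.995 CPM in CT, 18.1 ± 2.32 in WD, 11.1 ± 1.03 in HS and 63.8 ± 8.86 in WD+HS, and GLYMA_08G176300 (NCED3) at 3.91 ± 0.301, 13.3 ± 0.286, 8.31 ± 0.209 and 40.8 ± 5.50 (SD, n = 3). Both rose under WD (log2 fold changes of 1.21 and 1.76, edgeR adjusted p = 8.53e-05 and 1.09e-06) and under WD+HS (3.04 and 3.38, edgeR adjusted p = 1.31e-12 and 2.88e-13). Both were also called higher under HS, where GLYMA_10G029600 had its highest level. For GLYMA_15G250100 that rise was 0.51, and the call was lost without CT replicate 3 (edgeR adjusted p = 0.053).

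ABF2 (GLYMA_06G040400), known as AREB1 in Arabidopsis, did not pass the test under WD (0.53, edgeR adjusted p = 0.162), HS (-0.37, edgeR adjusted p = 0.134) or WD+HS (0.39, edgeR adjusted p = 0.0986). It was higher under WD+HS than under HS by 0.77 (edgeR adjusted p = 0.00927, and 0.0661 without HS replicate 1 or 0.0535 without WD+HS replicate 2). The 4 galactinol synthase 1 genes, which make a precursor of protective sugars, all rose under HS and WD+HS. GLYMA_10G145300 rose furthest under WD+HS (4.82, edgeR adjusted p = 3.29e-09) and GLYMA_20G094500 rose by 2.05 (edgeR adjusted p = 1.67e-10). Between WD+HS and HS both of these were higher, GLYMA_03G222000 did not pass the test (-0.04, edgeR adjusted p = 0.927) and GLYMA_19G219100 was lower (log2 fold change -0.89, edgeR adjusted p = 0.00497, DESeq2 adjusted p = 0.0659).

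Across all 12 libraries, the pair were not each other's closest match. Their log2(CPM + 1) values correlated at r = 0.594 (Spearman 0.601), and at 0.504 to 0.698 with any 1 library left out. Of 34912 genes whose mean level reached 1 CPM, 4.83% followed GLYMA_10G029600 more closely than GLYMA_20G150300 did, and 5.62% followed GLYMA_20G150300 more closely than GLYMA_10G029600 did. After the treatment means were taken out, the r between them was 0.403. All these correlations share the 12 libraries and are descriptions.

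GLYMA_10G029600 had 49 genes with r above 0.9 and GLYMA_20G150300 had 7. The closest to the former were GLYMA_05G207500 (beta-6 tubulin, r = 0.976), GLYMA_03G070400 (r = 0.968) and HSFB2A GLYMA_10G237800 (r = 0.958). The tubulin gene had mean levels of 55.5 CPM in CT, 41.2 in WD, 67.4 in HS and 36.1 in WD+HS, the same order of treatments over a narrower range. The closest to GLYMA_20G150300 were GLYMA_05G039900 (r = 0.940), GLYMA_07G170400 (r = 0.926) and GLYMA_10G046300 (r = 0.910), all low in WD replicate 3. Without that library their r was 0.860, 0.833 and 0.872, whereas those of the 3 genes closest to GLYMA_10G029600 were 0.974, 0.965 and 0.962.

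**Figure D5:**
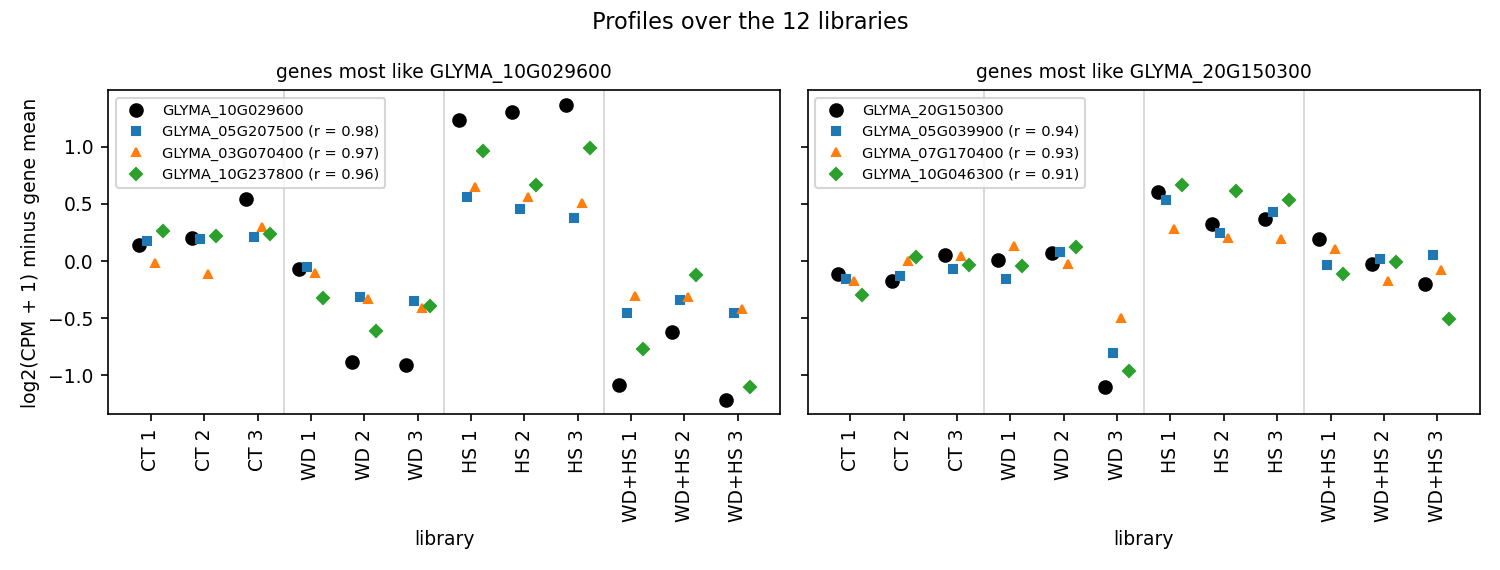
Log2(CPM + 1) minus the mean of each gene (y axis) in the 12 libraries (x axis) for each HSFA6B gene and the 3 genes whose profiles are most like it, with 1 point per gene and library. In both panels every gene has its HS libraries above its WD+HS libraries. GLYMA_20G150300 and its 3 closest genes are also all lowest in WD replicate 3.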

How the data were processed

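Per the study's methods, reads were trimmed (Trim Galore, FastQC) and aligned to Glycine max v.2.1 (Ensembl Plants release 51) with HISAT2, version 2.2.1 per the submitters' processing notes; FPKM values were made by the authors with Cufflinks. The deposited gene counts are raw; the counting program is not given in the sources used here.

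Counts of the 12 libraries were fitted together in 1 edgeR 4.0.16 quasi-likelihood model (R 4.3.3) of the 4 treatments, after filterByExpr (minimum count 10) and TMM scaling (factors 0.979 to 1.03). P-values were adjusted by Benjamini-Hochberg over 38410 genes, with a threshold of 0.05, and SE was taken as |log2 fold change| over √F. CPM are TMM-scaled counts. Nothing separates biological from technical spread beyond the labels' biological repeats, so p-values measure the spread between these pools. Cuffdiff, used by the authors, was not repeated. Count intervals are exact Poisson (95%).

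Copy ratios of counts used a pseudocount of 0.5. Alternatives were DESeq2 1.42.0, upper-quartile or library-size scaling, other filters, a replicate block, only the groups compared, limma 3.58.1 on log2 FPKM (pseudocount 1 or 0.1), and each library left out; likeness without single libraries was added after seeing the data. The scripts were tested on simulated data.

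Named genes were both HSFA6B genes, all tested genes of the HSFA6B, HSF and ABA lists, the 3 heat shock proteins highest in CPM, and the 3 genes with the highest r to each member. Members and lists were chosen with earlier results of these data known, and the lists come from the study's lists of changed genes. GLYMA_20G150300 was taken as HSFA6B when the pair was chosen, and otherwise has the name only from the study's heat map. The other HSFA6B names come from descriptions in the study's lists of changed genes. No gene sequences or coordinates were used here.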

Additional observations from a re-analysis of the deposited data

Results flagged for a closer look

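The effect of WD on 4 of the listed genes differed between 28°C and 38°C by an interaction term of the edgeR model (adjusted p over all genes by Benjamini-Hochberg). These 4 were flagged because they passed. The share of all genes with such a call is not given here, so the 4 have no background. The second NCED3 gene, GLYMA_08G176300, was not among them. The log2 effect at 38°C minus that at 28°C was -1.22 for HSFA2 GLYMA_04G052000 (edgeR adjusted p = 0.0185), and this call was lost without CT replicate 1 (0.0744), CT replicate 2 (0.0505), HS replicate 1 (0.0596) or WD+HS replicate 1 (0.0669). It was -1.28 for HSP90.1 GLYMA_09G131500 (edgeR adjusted p = 0.0227), lost without CT replicate 1 (0.0961), CT replicate 2 (0.0855), HS replicate 2 (0.0604) or WD+HS replicate 2 (0.0848). It was 1.32 for NCED3 GLYMA_15G250100 (edgeR adjusted p = 0.000581) and 0.88 for galactinol synthase 1 GLYMA_20G094500 (edgeR adjusted p = 0.00715). Both passed in all 17 alternatives, which were edgeR fits only. The interaction was not computed in DESeq2, in limma or with only the groups compared.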

How the results depend on the processing

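Of 1125 values recomputed for 56 results, 1036 were labelled as kept. For tested values this meant the same direction and side of the threshold. For values with no test it meant staying within the spread, even with a change of sign. An example is GLYMA_20G150300 under WD+HS relative to CT, at -0.04 without WD+HS replicate 1. For numbers of genes it meant a limited fold difference from the main number. For GLYMA_10G029600 under WD, the call was lost in limma on log2(FPKM + 1) (-0.60, adjusted p = 0.184) and log2(FPKM + 0.1) (-0.80, adjusted p = 0.182) and with only the groups compared (-1.02, adjusted p = 0.128), and single libraries left out gave -1.44 to -0.85. For GLYMA_20G150300 under WD, leaving out single libraries gave -0.47 to 0.15, which changed sign without WD replicate 3. On FPKM, GLYMA_10G029600 was 1.38 under HS with a pseudocount of 0.1, and -0.93 under WD+HS and -2.12 against HS with a pseudocount of 1. Among all genes, the number changed under WD was 622 (360 higher, 262 lower), 1010 in DESeq2, 1016 without the filter, 170 and 168 in limma (116 higher and 54 lower, 122 and 46), 224 with only the groups compared, and 266 to 1240 with a library left out. Genes higher under HS and lower under WD+HS numbered 62, 123 with only the groups compared and 27 to 119 with a library left out. Heat shock proteins changed under WD+HS numbered 43, and 27 where 10 counts were needed in every library. Replicate numbers do not pair the libraries: same-numbered libraries of different treatments correlated at r = -0.15 to 0.11 (18 pairs) and others at -0.13 to 0.16, and 3 of 12 were closest to their own number. With the replicate block GLYMA_10G029600 under WD was -1.04 (edgeR adjusted p = 0.0433), and 578 genes changed under WD. Levels near 20 counts limit GLYMA_10G003100 and HSFB4.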
